A study of Mus musculus with 15 samples.

Results

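Gene expression at a lysophosphatidylcholine (LPC) lesion of mouse corpus callosum was set against the opposite side, in 6 of the 15 libraries of the series. LPC_Ipsil, with 3 libraries, is the tissue at the LPC injection site, and LPC_Contra, with 3 libraries, is the callosal tissue contralateral to it. The members were taken by their labels, and every gene that passed an expression filter was tested, 16795 of 33321. Injured and contralateral tissue was collected 4 days after injury as bulk RNA. The other 9 libraries came from the site of saline injection in sham-operated mice (Sham_Ipsil) and both sides after L-NIO, an inhibitor of endothelial nitric oxide synthase given to cause a white matter stroke (LNIO_Ipsil, LNIO_Contra), 3 from each group. They entered the model so that all groups shared an estimate of spread, and no collection day is given for sham tissue. LPC_Contra comes from animals that were injured on the other side, so it is not uninjured tissue, and strain, age and LPC dose were not given in the sources used here. Nothing in the labels tells if the 3 libraries of one side are 3 mice, and p-values then measure only the spread between these libraries, which may be technical.

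LPC is a detergent-like phospholipid that lyses myelin sheaths where it is injected into white matter. The focal lesion that forms fills with microglia and macrophages, which engulf myelin debris, and astrocytes around it react. Oligodendrocyte precursors then divide, migrate in and differentiate into cells that remyelinate the axons, which largely survive. In bulk RNA, fewer cells of a type and less RNA per cell cannot be told apart, and neither can more cells and more RNA per cell.

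The 6 LPC libraries held 15983318 to 20916606 counts, and levels are given as CPM, a gene's count relative to its library size after scaling by the trimmed mean of M-values. Values of a group follow in the order of replicates 1, 2 and 3. Myelin genes were abundant in every library: Mbp, which encodes myelin basic protein, stood at 6808, 6424 and 9633 CPM in LPC_Ipsil and 7006, 6952 and 7870.0 CPM in LPC_Contra. Neuronal RNA was present too, with Snap25, a synaptic vesicle fusion protein, at 1278, 1349.8 and 1539 CPM in LPC_Ipsil and 1965, 1765 and 1915 CPM in LPC_Contra. A library of each side stood apart from its group. LPC_Ipsil replicate 3 lay at -11.3 on the first principal component, where its 2 group mates lay at 77.2 and 50.6 and the LPC_Contra libraries at -15.6, 2.56 and -25.0. LPC_Contra replicate 2 lay at -62.9 on the second component, and long genes had low values in it: the rank correlation across genes between gene length and level relative to the mean of all libraries was -0.489 there and -0.134 to 0.273 in the other LPC libraries.

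By edgeR's quasi-likelihood test with Benjamini-Hochberg adjustment, 0 of 16795 genes (0%) passed an adjusted p under 0.05 between LPC_Ipsil and LPC_Contra. The smallest adjusted p was 0.0629, shared by 254 genes. At an unadjusted p under 0.05, 1433 genes (8.53%) were higher and 603 (3.59%) lower at the lesion, 2036 (12.1%) in all. All 3 LPC_Ipsil libraries lay above all 3 LPC_Contra libraries for 1185 genes (7.06%) and below them for 1107 (6.59%). DESeq2 called 661 genes, 588 higher and 73 lower. With LPC_Ipsil replicate 3 left out, edgeR called 950 of 17119 genes (5.55%), of which 901 were higher (5.26%) and 49 lower (0.286%), and 596 of the 950 were among the DESeq2 calls. With LPC_Contra replicate 2 left out instead, 0 were called and 2534 had an unadjusted p under 0.05, and with both left out 1283 of 17106 (7.5%). Below, "called without replicate 3" refers to the fit without LPC_Ipsil replicate 3, whose position near the contralateral side is known only from these values. Counts within the gene lists below are to be read beside these shares over all genes. Of the tested genes, 383 stayed under the filter level of 0.558 CPM in every LPC_Contra library and passed through other groups. Such genes could hardly come out lower at the lesion, and the lists below each hold up to 4 of them.

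In each direction, 6 genes were named by the smallest p, at an average of at least 1 log2 CPM and with no overlap between sides. The equal split of these 12 was set by that rule. Higher genes outside the 12, such as Siglech (unadjusted p = 0.000224), had a smaller p than some of the 6 lower ones, such as Mgst3 (0.000481). Most of the 6 higher genes are known from immune cells of the myeloid line. Csf1 encodes the growth factor that sustains microglia and macrophages and stood at 105, 85.9 and 48.4 CPM in LPC_Ipsil against 37.4, 35.1 and 33.2 CPM in LPC_Contra, a log2 difference of 1.18 ± 0.21 (SE; adjusted p = 0.0629). Cd33, a sialic acid-binding inhibitory receptor of microglia, stood at 90.4, 64.8 and 24.1 against 15.5, 15.9 and 16.9 CPM (log2 difference 1.89 ± 0.33). Lair1, an inhibitory collagen receptor of immune cells, stood at 48.3, 26.6 and 10.5 against 5.58, 6.48 and 4.73 CPM (2.34 ± 0.43). In all of these, replicate 3 was the lowest lesion library. Its place above every contralateral library follows from the choice of genes without overlap.

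The other 3 higher genes had the same order of libraries. Adcy7, an adenylyl cyclase abundant in immune cells, stood at 63.8, 37.8 and 13.3 CPM in LPC_Ipsil and 9.705, 7.53 and 11.3 CPM in LPC_Contra (log2 difference 2.01 ± 0.38). Elf1, a transcription factor of the ETS family, stood at 19.2, 17.7 and 13.7 against 9.97, 10.04 and 8.82 CPM (0.81 ± 0.15). Lilrb4b, an inhibitory receptor of myeloid cells, stood at 10.1, 5.15 and 0.907 against 0.313, 0.292 and 0 CPM (4.64 ± 0.87), and its reads may be shared with its close copy Lilrb4a. It had 11 counts over the 3 LPC_Contra libraries and passed the filter through other groups. All 6 shared the adjusted p of 0.0629, and without replicate 3 all 6 were called, with adjusted p from 8.01e-06 to 0.00103.

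The log2 differences of the 6 lower genes ran from -0.90 to -0.52, and their 3 lesion libraries lay close together. Scg2, a granin stored in the secretory granules of neurons, stood at 93.2, 107 and 96.9 CPM in LPC_Ipsil and 164, 169 and 136 CPM in LPC_Contra (log2 difference -0.66 ± 0.11). Vgf, a neuropeptide precursor induced by neurotrophins and activity, stood at 127, 112 and 104 against 194, 187 and 175 CPM (-0.70 ± 0.14). Egr1, an immediate early transcription factor of active neurons, stood at 167, 203 and 167 against 331, 336 and 340.2 CPM (-0.90 ± 0.18). Replicate 3 lay between the other lesion libraries for Scg2 and Egr1 and below them for Vgf.

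Nell1, a secreted glycoprotein, stood at 17.4, 17.6 and 18.3 CPM in LPC_Ipsil and 25.3, 25.4 and 25.5 CPM in LPC_Contra, a spread within each side of under 1 CPM (log2 difference -0.52 ± 0.11). Pde9a, a cyclic GMP phosphodiesterase, stood at 14.2, 15.8 and 14.4 against 19.9, 24.5 and 19.5 CPM (-0.53 ± 0.11). Mgst3, a microsomal glutathione transferase, stood at 24.5, 26.7 and 28.4 against 34.8, 48.6 and 37.8 CPM (-0.61 ± 0.14). The adjusted p of all 6 was 0.0629, and without replicate 3 it ran from 0.00615 to 0.0406.

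**Figure D1:**
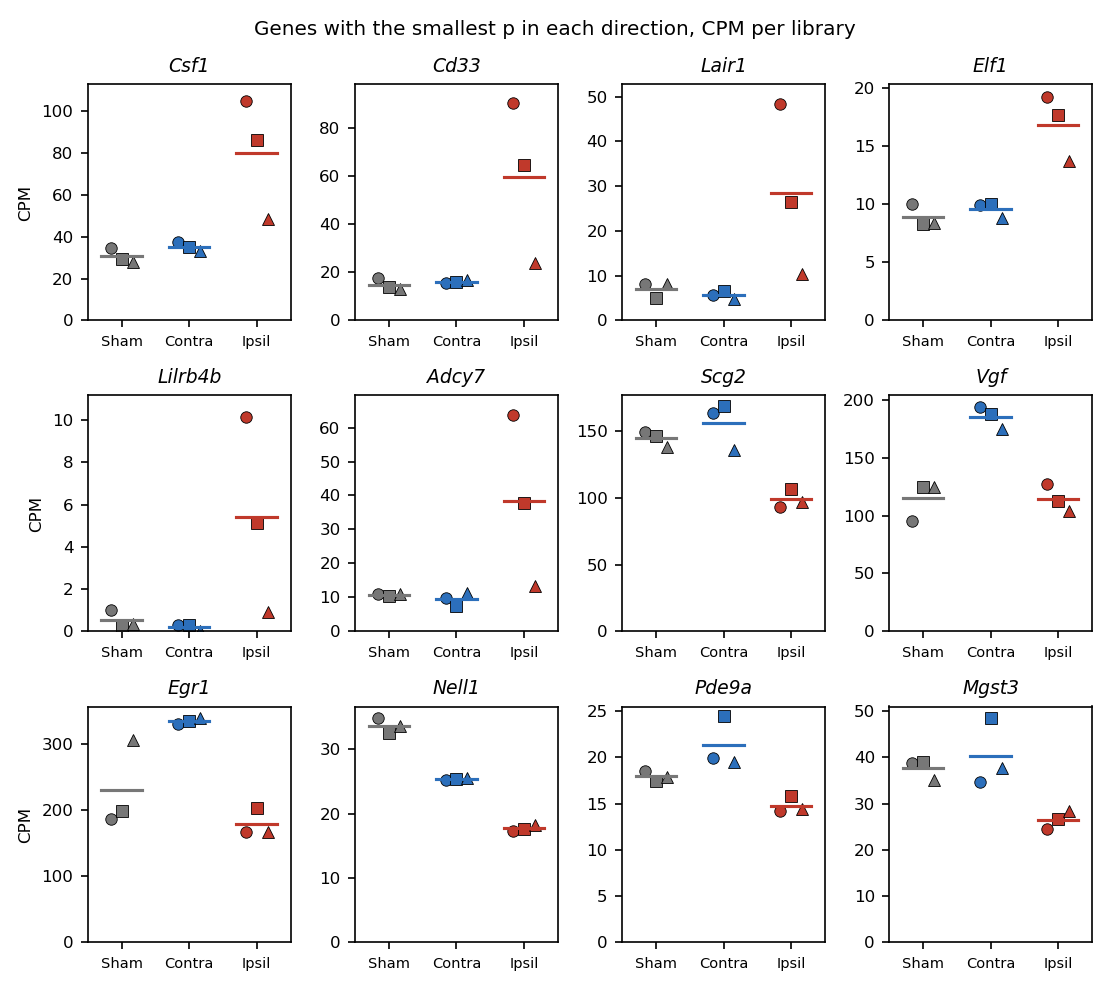
CPM (linear axes from 0) of the 12 genes in each Sham_Ipsil, LPC_Contra and LPC_Ipsil library. Circles, squares and triangles are replicates 1, 2 and 3, and bars are group means; LPC_Ipsil replicate 3 is the lowest lesion library for the 6 higher genes, and for the lower genes the 3 lesion libraries lie close together.

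Sham tissue placed the lower genes differently. Vgf stood at 95.2, 124 and 125 CPM in Sham_Ipsil, level with the lesion and below LPC_Contra, and Nell1 at 34.9, 32.6 and 33.6 CPM, above both sides. Scg2 stood at 149, 146 and 138 CPM in sham, which overlapped LPC_Contra and lay above the lesion. Egr1 varied within sham, at 188, 199.6 and 307 CPM, from near the lesion level to near that of LPC_Contra.

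Promoter sequence was read for genes of both directions, to show the letters upstream of one lower and 2 higher genes. In the 250 bases before the start site, in the RefSeq promoter table of GRCm38.p6 (the files' own build is GRCm39), 2 motifs were searched on both strands. They were the cAMP response element, TGACGTCA, found in 1.55% of all 32851 promoters of that length, and the ETS-type core bound by PU.1, AGGAAGT, found in 7.69%. Of the 12 genes above, 8 had an entry in the table, and Scg2 held the former and Adcy7 the latter. Cst7, a gene of damage-associated microglia described below, also held AGGAAGT, and its promoter and both motifs were chosen after values were seen. The stretches below run 5′ to 3′ on the strand of the gene, with the motif in capitals and 30 bases on each side.
Scg2 (chr1:79440057-79440124, minus strand): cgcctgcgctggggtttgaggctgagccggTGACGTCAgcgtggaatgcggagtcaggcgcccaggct
Adcy7 (chr8:88288990-88289056, plus strand): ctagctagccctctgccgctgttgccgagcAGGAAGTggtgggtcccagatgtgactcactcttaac
Cst7 (chr2:150570322-150570388, plus strand): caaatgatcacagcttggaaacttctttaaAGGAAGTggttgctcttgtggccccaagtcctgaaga
The first base of the motif lies 68 bases before the start site in Scg2, 46 in Adcy7 and 63 in Cst7. A match describes these letters and is not evidence of binding.

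Genes of microglia, the resident macrophages of the brain, stood higher at the lesion as a group, with the difference carried by replicates 1 and 2. All 20 genes of damage-associated microglia, the state seen around dying cells and myelin debris, had an unadjusted p under 0.05 and a higher mean, and 0 were lower. Their median log2 difference was 3.09, against 0.01 over all tested genes. Of the 20, 2 lay above LPC_Contra in all 3 lesion libraries, where the share over all genes was 7.06%. Without replicate 3 all 20 were called, where 5.26% of all genes were called higher. The level of the list in each library, the mean log2 CPM of its members relative to the mean of LPC_Contra, was 3.74, 3.03 and 0.15 in LPC_Ipsil and -0.14, 0.53 and -0.39 in LPC_Contra.

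Cst7, which encodes the cathepsin inhibitor cystatin F, stood at 136, 47.6 and 1.27 CPM in LPC_Ipsil and 0.574, 1.69 and 0.0648 CPM in LPC_Contra (log2 difference 6.27 ± 1.36, adjusted p = 0.0629). Gpnmb, a glycoprotein of phagocytic macrophages, stood at 130.3, 119 and 2.24 against 2.87, 2.101 and 1.36 CPM (5.29 ± 1.18, adjusted p = 0.0629). Spp1, the secreted phosphoprotein osteopontin, stood at 189, 133 and 4.53 against 4.12, 7.295 and 2.72 CPM (4.52 ± 1.03, adjusted p = 0.0629). Replicate 3 lay inside the contralateral range for all 3 genes, and replicates 1 and 2 lay far above it. Trem2, the lipid-sensing receptor that drives this state, stood at 229, 126 and 15.8 against 10.9, 21.8 and 6.35 CPM (3.25 ± 0.73). Ctsl, a lysosomal protease, stood at 318, 247 and 122 against 86.9, 133 and 92.8 CPM (1.13 ± 0.26). Apoe, the lipid carrier made by astrocytes and by reactive microglia, stood at 3832, 2428 and 923 against 846, 1616 and 917 CPM (1.09 ± 0.41, adjusted p = 0.263). For Trem2, Ctsl and Apoe too, replicate 3 lay within the contralateral range. Ch25h, an oxysterol synthase, stood at 21.7, 7.89 and 0.181 CPM at the lesion and at 0, 0.117 and 0.1297 CPM in LPC_Contra, where it had 4 counts over 3 libraries. It passed the filter through other groups.

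Genes of homeostatic microglia were higher as well, not lower. All 11 tested members of 12 had an unadjusted p under 0.05 and a higher mean, with a median log2 difference of 1.64; 3 did not overlap and 11 were called without replicate 3. P2ry12, the purinergic receptor that guides microglial processes, stood at 236, 202 and 65.97 CPM in LPC_Ipsil and 53.8, 57.6 and 58.5 CPM in LPC_Contra (1.57 ± 0.33). Siglech, a sialic acid-binding receptor of microglia, stood at 78.6, 47.2 and 22.1 against 15.7, 20.1 and 16.1 CPM (1.51 ± 0.31), with no overlap between the sides in either gene. Csf1r, the receptor for the Csf1 product, stood at 666, 437 and 123 against 94.9, 121 and 91.9 CPM (1.99 ± 0.44), with replicate 3 just above the highest contralateral library. Cx3cr1, the receptor for the neuronal chemokine fractalkine, stood at 425, 298 and 68.8 against 59.5, 70.4 and 64.9 CPM (2.02 ± 0.45), and here replicate 3 overlapped the contralateral side. Aif1, which encodes the microglial marker Iba1, stood at 26.1, 16.7 and 5.74 against 4.904, 9.75 and 5.12 CPM (1.30 ± 0.44, adjusted p = 0.194).

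**Figure D2:**
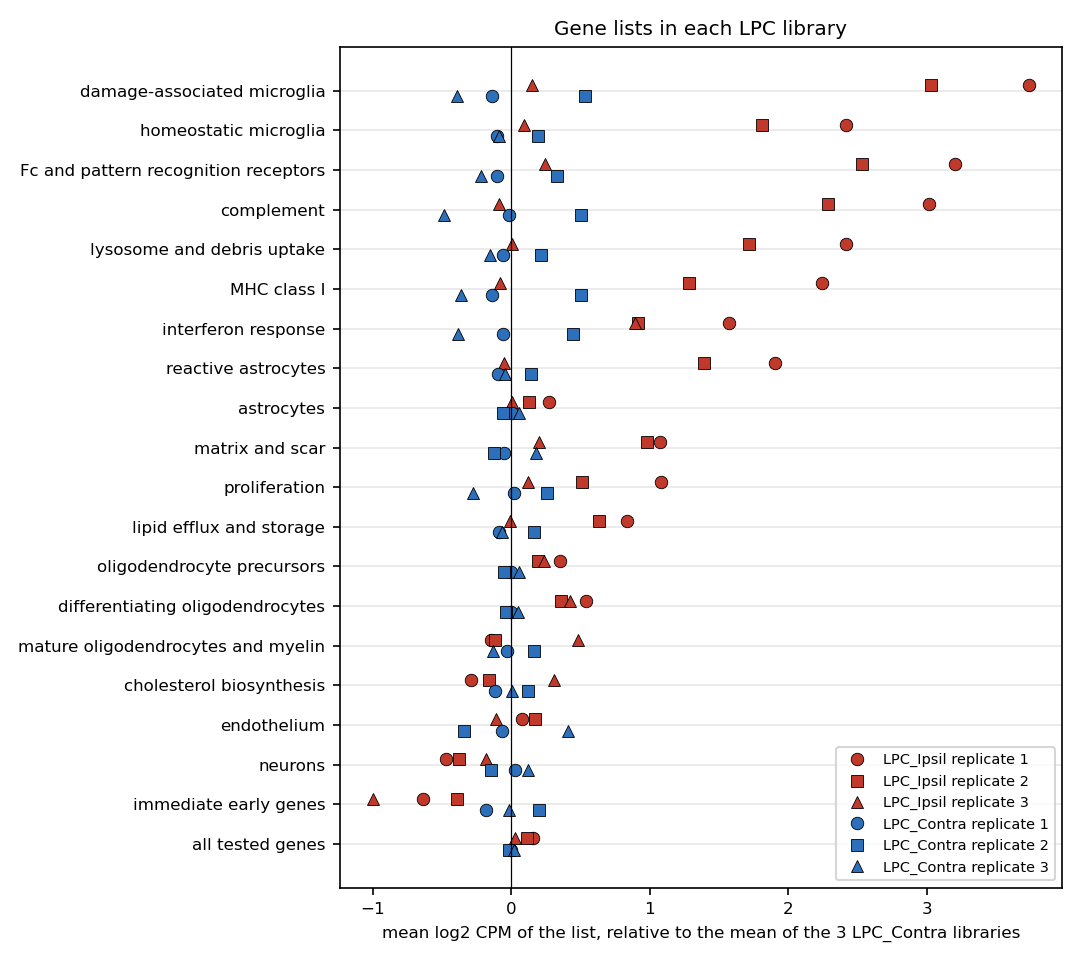
Mean log2 CPM of each gene list in each LPC library, relative to the mean of the 3 LPC_Contra libraries. LPC_Ipsil replicate 3 (red triangle) lies with LPC_Contra for the microglial lists and with the other lesion libraries for the interferon, oligodendrocyte precursor, differentiating oligodendrocyte and immediate early gene lists.

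Receptors and transcription factors of myeloid cells followed. For Fc and pattern recognition receptors, which bind antibody and microbial or damage signals, 13 of 13 tested genes were higher and 0 lower at an unadjusted p under 0.05, with a median log2 difference of 2.42, and 6 did not overlap. Tlr4, the endotoxin receptor, stood at 7.002, 6.24 and 2.24 CPM in LPC_Ipsil and 2.03, 1.11 and 0.972 CPM in LPC_Contra (1.90 ± 0.42). Tlr7, an endosomal receptor for single-stranded RNA, stood at 40.1, 26.6 and 5.02 against 4.33, 4.03 and 2.72 CPM (2.69 ± 0.62). In both, replicate 3 exceeded each contralateral library by a small margin. Of 11 myeloid transcription factors, 10 were higher and 0 lower, with a median of 1.72 and 0 without overlap. Spi1, which encodes PU.1, stood at 40.4, 23.5 and 4.47 against 2.97, 6.89 and 3.11 CPM (2.40 ± 0.56), and Irf8, its partner in microglial development, at 111, 64.5 and 11.4 against 10.1, 13.2 and 7.33 CPM (2.60 ± 0.58). Replicate 3 lay within the contralateral range for both.

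Genes of debris clearance were higher in the same libraries. Of 15 tested lysosome and uptake genes, 12 were higher and 0 lower at an unadjusted p under 0.05, with a median log2 difference of 1.65 that was 1.05 without LPC_Ipsil replicate 1, and 11 were called without replicate 3. Mpeg1, a pore-forming protein of macrophage phagosomes, stood at 1079.7, 542 and 55.3 CPM in LPC_Ipsil and 35.3, 63.97 and 36.3 CPM in LPC_Contra (3.63 ± 0.81, adjusted p = 0.0629). Cd68, a lysosomal glycoprotein of phagocytes, stood at 181, 119 and 9.19 against 10.4, 16.3 and 8.75 CPM (3.12 ± 0.73). Lipa, the lysosomal acid lipase that frees cholesterol from engulfed lipid, stood at 70.8, 48.2 and 29.7 against 22.5, 22.2 and 28.4 CPM (1.03 ± 0.25). Replicate 1 was the highest library for these 3 genes, and replicate 3 stood above all contralateral libraries for Lipa alone among them.

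Complement tags debris and synapses for removal. Of 12 complement genes, 11 were higher and 0 lower at an unadjusted p under 0.05, with a median log2 difference of 2.52. Only 1 was without overlap, a share near the 7.06% over all genes. C1qc, a chain of the initiating C1q complex, stood at 339, 208 and 24.2 CPM in LPC_Ipsil and 24.4, 51.1 and 19.3 CPM in LPC_Contra (2.59 ± 0.68, adjusted p = 0.086). Itgam, a chain of complement receptor 3, stood at 105, 55.9 and 12.3 against 8.77, 13.2 and 8.17 CPM (2.52 ± 0.52, adjusted p = 0.0629). Replicate 3 lay within the contralateral range for C1qc and Itgam.

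Of the genes for signals between immune cells, some but not all were higher at the lesion. Among 10 tested chemokines of 13 listed, 6 were higher and 1 lower at an unadjusted p under 0.05, with a median log2 difference of 2.30 (3.53 without LPC_Contra replicate 2). Ccl6 stood at 143, 68.7 and 3.63 CPM in LPC_Ipsil and 2.03, 5.14 and 3.18 CPM in LPC_Contra (4.38 ± 0.93), and Ccl3 at 13.2, 12.8 and 0.242 against 0.0522, 0.817 and 0.1297 CPM (4.70 ± 1.10). The 1 lower chemokine was Cx3cl1, the neuronal fractalkine, at 305, 343 and 328 against 500.4, 433 and 486 CPM (-0.54 ± 0.14, adjusted p = 0.066), with no overlap between sides. With Cx3cl1 included, the chemokines summed to 412 to 613 CPM in LPC_Ipsil and 492 to 600.3 CPM in LPC_Contra. Ccl2, the main attractant of blood monocytes, did not pass the expression filter, at 0.531, 0.526 and 0.0614 CPM in LPC_Ipsil and 0.0513, 0.238 and 0 CPM in LPC_Contra. Of 7 tested cytokine genes, 4 were higher and 0 lower, among them Tgfb1, which encodes transforming growth factor beta 1, at 63.6, 35.6 and 5.99 against 5.43, 9.05 and 6.35 CPM (2.34 ± 0.57). Of the 7, 2 stayed under the filter level in every LPC_Contra library and passed the filter through other groups. Il1b, which encodes interleukin 1 beta, stood at 1.57, 1.32 and 0.121 against 0.4696, 0.642 and 0.194 CPM (1.19 ± 0.70, adjusted p = 0.563), with the groups overlapping.

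Markers of blood-derived and border cells were scarce beside the microglial genes. The 9 monocyte markers found summed to 46.2 to 146 CPM in LPC_Ipsil and 20.95 to 56.9 CPM in LPC_Contra, and 5 of them were tested, 2 higher and 0 lower at an unadjusted p under 0.05. Fn1, fibronectin, which other cells make too, made up most of that sum, at 133, 96.2 and 34.04 against 35.2, 15.1 and 45.8 CPM. Ccr2, the receptor that brings monocytes in, stood at 3.199, 0.945 and 0.121 against 0.4696, 0.409 and 0.389 CPM (1.72 ± 0.81, adjusted p = 0.414). It was 1 of 2 tested monocyte markers that stayed under the filter level in every LPC_Contra library. The 9 border macrophage markers summed to 9.43 to 31.6 CPM in LPC_Ipsil and 7.24 to 12 CPM in LPC_Contra, and 3 were higher and 0 lower at that threshold. Of those, Siglec1, a sialic acid-binding adhesion receptor, stood at 18.9, 6.85 and 0.605 against 0.4696, 0.467 and 0.194 CPM (4.49 ± 1.04), and Mrc1, the mannose receptor, at 4.53, 5.67 and 3.08 against 3.18, 1.401 and 2.399 CPM (0.93 ± 0.40, adjusted p = 0.362). Siglec1 had 20 counts over the 3 LPC_Contra libraries and passed the filter through other groups. It was among 4 of the 9 border macrophage markers that stayed under the filter level in every LPC_Contra library. Of 10 neutrophil markers found, 1 was tested, Csf3r, which microglia also express, at 192, 109 and 15.7 against 17.01, 17.98 and 13.2 CPM (2.71 ± 0.62). The other 9 each stayed at or under 0.543 CPM in every LPC library, with Ly6g and Elane at 0 in all 6. Natural killer markers summed to 0.121 to 1.33 CPM in LPC_Ipsil and 0.157 to 0.467 CPM in LPC_Contra, with Gzmb at 0 in all 6. The 8 T cell markers summed to 18.7 to 32.7 CPM in LPC_Ipsil and 15.8 to 32.5 CPM in LPC_Contra, most of it from Cd4, with Cd3g at 0 in all 6, and Cd3e stood at 0, 0.0478 and 0 against 0, 0 and 0 CPM. Of 3 tested T cell markers 1 was higher, Icos, a costimulatory receptor of activated T cells, at 1.33, 1.32 and 0.302 against 0.104, 0.292 and 0 CPM (2.82 ± 0.73, unadjusted p = 0.00165, adjusted p = 0.0713), without overlap and called without replicate 3 (adjusted p = 0.00862). Icos had only 7 counts over the 3 LPC_Contra libraries and passed the filter through other groups.

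Antigen presentation genes were higher in part, and mainly in replicates 1 and 2. Of 9 MHC class I genes, 6 were higher and 0 lower at an unadjusted p under 0.05, with a median log2 difference of 1.52 (0.92 without LPC_Ipsil replicate 1) and 0 without overlap. B2m, the shared light chain of class I molecules, stood at 555, 278 and 82.5 CPM in LPC_Ipsil and 70.5, 125 and 90.8 CPM in LPC_Contra (1.68 ± 0.47, adjusted p = 0.11). Of 7 MHC class II genes, 3 were higher and 0 lower, with a median of 1.30 (0.72 without LPC_Ipsil replicate 1) and 1 without overlap. Of these 7, 2 stayed under the filter level in every LPC_Contra library. Cd74, the class II invariant chain, stood at 29.2, 10.5 and 2.06 against 1.77, 4.26 and 1.04 CPM (2.55 ± 0.92, adjusted p = 0.237). Replicate 3 lay within the contralateral range for both genes. The class II gene without overlap was H2-Ab1, a class II beta chain, at 9.42, 6.33 and 7.44 against 1.88, 4.96 and 2.66 CPM (1.29 ± 0.81, adjusted p = 0.61), and there replicate 3 stood above replicate 2.

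Interferon-response genes stood high in all 3 lesion libraries, replicate 3 included. The list stood at 1.57, 0.92 and 0.89 in LPC_Ipsil and -0.06, 0.45 and -0.38 in LPC_Contra, on the log2 scale relative to the contralateral mean. Of 18 genes, 9 were higher and 0 lower at an unadjusted p under 0.05, and 11 lay above LPC_Contra in all 3 libraries, where the share over all genes was 7.06%. The median log2 difference was 1.20, and 3 members were called without replicate 3. Ifi44, an interferon-induced protein, stood at 4.29, 2.27 and 2.48 CPM in LPC_Ipsil and 0.783, 0.875 and 0.713 CPM in LPC_Contra (1.91 ± 0.45, adjusted p = 0.0629), and Oasl2, of the oligoadenylate synthetase-like family, at 22.7, 12.4 and 15.7 against 5.06, 6.89 and 4.41 CPM (1.63 ± 0.49). Replicate 3 lay level with or above replicate 2 for both. Bst2, the antiviral protein tetherin, stood at 22.9, 9.402 and 7.74 against 2.4, 6.65 and 4.41 CPM (1.57 ± 0.52, adjusted p = 0.175).

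Oligodendrocyte genes divided by stage. Genes of differentiating oligodendrocytes, the cells between precursor and myelin-forming cell, were higher in all 3 lesion libraries, at 0.54, 0.36 and 0.43 against -0.01, -0.04 and 0.05 in LPC_Contra. Of 12 tested, 9 were higher and 0 lower at an unadjusted p under 0.05, 9 did not overlap, and the median log2 difference was 0.45. Without replicate 3, 2 were called and the median was 0.50. Itpr2, a calcium release channel that marks newly formed oligodendrocytes, stood at 49.4, 58.9 and 47.2 CPM in LPC_Ipsil and 31.3, 23.5 and 30.9 CPM in LPC_Contra (0.86 ± 0.18, adjusted p = 0.0629). Rras2, a small GTPase, stood at 28.6, 27.2 and 33.98 against 15.1, 20.3 and 17.1 CPM (0.78 ± 0.16, adjusted p = 0.0629), and its highest lesion library was replicate 3. In Sham_Ipsil Rras2 stood at 28.2, 20.8 and 19.9 CPM, with replicate 1 within the lesion range. LPC_Contra minus sham was -0.39 ± 0.16 for this gene, while the whole list stood at 0.01, -0.21 and -0.30 in Sham_Ipsil. Gpr17, a receptor of committed precursors, stood at 250.4, 183 and 188 against 137, 104 and 142 CPM (0.70 ± 0.24, adjusted p = 0.208). Cemip2, a cell-surface protein with a hyaluronidase-like domain, stood at 21.7, 26.4 and 31.5 against 17.6, 13.1 and 19.3 CPM (0.67 ± 0.18). The groups did not overlap for any of these 4 genes. LPC_Contra replicate 2, where long genes were low, had the lowest contralateral value for Itpr2, Gpr17 and Cemip2 but the highest for Rras2. Without it the log2 difference was 0.74 ± 0.19 for Itpr2, 0.90 ± 0.17 for Rras2 and 0.57 ± 0.27 for Gpr17, and the list's median was 0.52. The log2 difference of Cemip2 ran from 0.38 to 0.79 across all the fits run, those on FPKM included.

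**Figure D3:**
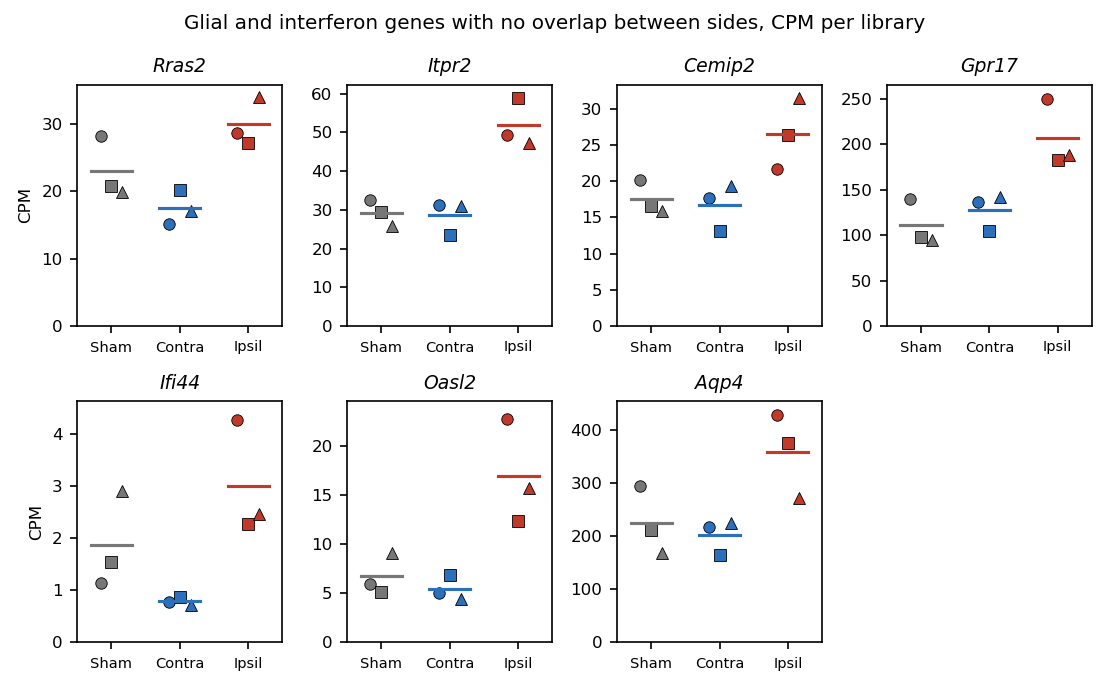
CPM (linear axes from 0) of 4 genes of differentiating oligodendrocytes, 2 interferon-response genes and the astrocyte water channel gene Aqp4 in each Sham_Ipsil, LPC_Contra and LPC_Ipsil library. Circles, squares and triangles are replicates 1, 2 and 3 and bars are group means. The genes were picked for having no overlap between the LPC sides, so each LPC_Ipsil library lies above each LPC_Contra library by choice.

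Few precursor genes differed singly, but the list stood higher in all 3 lesion libraries. It stood at 0.35, 0.19 and 0.24 in LPC_Ipsil and 0.0006, -0.05 and 0.05 in LPC_Contra. Of 12, 10 had a log2 difference above 0, and 3 did not overlap, where the share above LPC_Contra over all genes was 7.06%. The median log2 difference was 0.25, against 0.01 over all tested genes. At an unadjusted p under 0.05, 1 of the 12 was higher and 0 lower, a share near the 8.53% higher over all genes. The 1 was Cspg4, which encodes the proteoglycan NG2, at 55.95, 36.9 and 25.1 CPM in LPC_Ipsil and 22.7, 14.6 and 25.6 CPM in LPC_Contra (0.91 ± 0.27, adjusted p = 0.121), and pericytes express it too. Pdgfra, the growth factor receptor of precursors, stood at 72.9, 78.9 and 78.7 against 68.8, 49.8 and 68.6 CPM (0.30 ± 0.14, adjusted p = 0.431), without overlap. LPC_Contra replicate 2, where long genes were low, had the lowest contralateral value for Cspg4 and Pdgfra. The log2 difference of Pdgfra ran from 0.14 to 0.38 across all the fits run.

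Myelin genes overlapped between the sides with 1 exception, Nfasc. Of 20, 0 were higher and 0 lower at an unadjusted p under 0.05, and the median log2 difference was 0.06. Mbp differed by 0.07 ± 0.18 on the log2 scale. Replicate 3 was the highest of the 6 libraries for Mbp, and without it the list's median was -0.13. The myelin list stood at -0.15, -0.12 and 0.48 in LPC_Ipsil and -0.03, 0.16 and -0.13 in LPC_Contra.

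Genes of cholesterol synthesis, which myelin formation needs, included 0 higher and 0 lower of 21 at that threshold, with a median of -0.06 that ran from -0.24 without LPC_Ipsil replicate 3 to 0.07 without LPC_Ipsil replicate 1. Hmgcs1, an early enzyme of the pathway, stood at 216, 249 and 601 CPM in LPC_Ipsil and 236, 302 and 285 CPM in LPC_Contra (0.37 ± 0.33), with replicate 3 far above the rest. Lipid efflux and storage genes included 6 higher and 0 lower of 14, with a median of 0.22. Abca1, which exports cholesterol from loaded cells, stood at 233, 208 and 68.4 against 67.7, 42.7 and 62.2 CPM (1.56 ± 0.34, adjusted p = 0.0629), and Plin2, a lipid droplet coat protein, at 37.2, 26.6 and 7.74 against 5.79, 10.2 and 5.71 CPM (1.72 ± 0.42). Replicates 1 and 2 carried both. Of 13 genes that restrain oligodendrocyte differentiation, 0 were higher and 1 lower, Lingo1, at 101, 89.9 and 105 against 131, 108 and 171 CPM (-0.47 ± 0.17, adjusted p = 0.244).

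Reactive astrocyte genes were higher in replicates 1 and 2, while most general astrocyte genes were not. Of 14 reactive genes, 9 were higher and 0 lower at an unadjusted p under 0.05, with a median log2 difference of 1.14 and 8 called without replicate 3. Gfap, the astrocyte intermediate filament, stood at 2375, 1618 and 600.1 CPM in LPC_Ipsil and 484, 796 and 445 CPM in LPC_Contra (1.41 ± 0.45, adjusted p = 0.166). Cd44, a hyaluronan receptor, stood at 45.5, 37.2 and 9.796 against 7.67, 10.97 and 8.36 CPM (1.78 ± 0.40, adjusted p = 0.0629), and Osmr, the oncostatin M receptor, at 22.2, 16.2 and 7.86 against 8.35, 6.36 and 5.83 CPM (1.17 ± 0.28). Replicate 3 lay within the contralateral range for all 3. Of 11 general astrocyte genes, 1 was higher, near the 8.53% higher over all genes, and 0 lower, with a median of 0.06. The 1 was Aqp4, the water channel of astrocyte endfeet, at 429, 377 and 273 against 217, 164 and 226 CPM (0.83 ± 0.22, adjusted p = 0.0794), and its groups did not overlap.

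Genes of cell division and matrix were partly higher at the lesion. Of 18 proliferation genes, 6 were higher and 0 lower at an unadjusted p under 0.05, with 4 not overlapping and a median log2 difference of 0.63 (0.28 without LPC_Ipsil replicate 1). Mki67, which marks cycling cells, stood at 39.4, 23.5 and 16.6 CPM in LPC_Ipsil and 17.2, 9.69 and 9.85 CPM in LPC_Contra (1.11 ± 0.34, adjusted p = 0.137), and Mcm3, a subunit of the replicative helicase, at 15.6, 10.3 and 7.56 against 4.23, 7.94 and 4.15 CPM (1.04 ± 0.29). Of 18 matrix and scar genes, 9 were higher and 1 lower, with a median of 0.50. Lox, which cross-links collagen, stood at 9.296, 6.57 and 1.57 against 0.678, 0.467 and 0.972 CPM (3.04 ± 0.61, adjusted p = 0.0629), without overlap. Sparc, a matrix glycoprotein that microglia and endothelium make, stood at 1043, 616 and 230.1 against 177, 240.4 and 207 CPM (1.60 ± 0.36). Col3a1, a fibrillar collagen of fibroblasts, stood at 9.72, 13.9 and 4.29 against 4.23, 2.68 and 2.66 CPM (1.54 ± 0.45, adjusted p = 0.112). The fibroblast list had 2 of 8 higher and 0 lower, and its median of 0.68 was 0.23 without LPC_Ipsil replicate 2.

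Vascular genes were nearly level between sides. Of 12 endothelial genes, 1 was higher, near the 8.53% higher over all genes, and 0 lower at an unadjusted p under 0.05. Their median log2 difference was -0.08, and the corresponding numbers for 9 pericyte and smooth muscle genes were 0, 0 and -0.10. Both medians changed sign with a library left out, to 0.03 and 0.03 without LPC_Ipsil replicate 3 and to 0.19 and 0.15 without LPC_Contra replicate 3. Cldn5, the tight junction claudin of brain endothelium, stood at 25.7, 24.8 and 17.8 CPM in LPC_Ipsil, 20.1, 28.6 and 25.5 CPM in LPC_Contra and 11.2, 12.5 and 15.6 CPM in Sham_Ipsil. Both callosal sides of the LPC animals thus lay above sham for Cldn5, and LPC_Contra minus sham was 0.91 ± 0.26 on the log2 scale (adjusted p = 0.492). Over the endothelial list the median of LPC_Contra minus sham was 0.61, with 7 of 12 higher and 0 lower, where over all genes 4.24% were higher and 5.43% lower at that threshold. That comparison uses the same LPC_Contra libraries as the side comparison, and in it 1 gene (0.00595%) passed an adjusted p under 0.05, Tnfaip8l3, a phosphoinositide transfer protein, at 4.85, 3.62 and 5.38 CPM in LPC_Contra and 16.7, 16.9 and 12.1 CPM in sham (-1.72 ± 0.22, adjusted p = 0.0224). It was 5.73, 6.33 and 7.74 CPM in LPC_Ipsil and was chosen after its values were seen. The call was lost without Sham_Ipsil replicate 1 or 2, LPC_Contra replicate 1 or 2, LPC_Ipsil replicate 2, LNIO_Ipsil replicate 3 or LNIO_Contra replicate 2.

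Red cell genes were higher in all 3 lesion libraries than in LPC_Contra replicates 1 and 3, and 2 of 4 had an unadjusted p under 0.05. Hba-a1, an alpha globin gene whose reads may be shared with its copy Hba-a2, stood at 147, 132 and 149 CPM in LPC_Ipsil, 58.1, 148 and 89.1 CPM in LPC_Contra and 102, 129 and 162 CPM in sham. Alas2, the erythroid heme synthesis enzyme, stood at 3.98, 2.504 and 2.298 against 1.04, 1.75 and 1.23 CPM (1.12 ± 0.32, adjusted p = 0.102), without overlap.

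Neuronal genes stood lower at the lesion, on the mean over the list in all 3 libraries, though replicate 3 by a small margin. The list stood at -0.47, -0.38 and -0.19 in LPC_Ipsil, 0.03, -0.15 and 0.12 in LPC_Contra and -0.22, 0.25 and 0.02 in Sham_Ipsil. Its summed CPM overlapped between the sides, at 5013 to 6281 in LPC_Ipsil and 6074 to 7796 in LPC_Contra. Of 12, 0 were higher and 5 lower at an unadjusted p under 0.05, where 3.59% of all genes were lower. The same number, 5, lay below LPC_Contra in all 3 lesion libraries, where the share over all genes was 6.59%. The median log2 difference was -0.33. Snap25 differed by -0.44 ± 0.14 (adjusted p = 0.167). Nefl, the light neurofilament chain of axons, stood at 158, 152 and 175 CPM in LPC_Ipsil and 239.7, 195 and 230.1 CPM in LPC_Contra (-0.46 ± 0.16, adjusted p = 0.193), and Rbfox3, which encodes the nuclear marker NeuN, at 139, 156 and 173 against 209, 199.8 and 230.3 CPM (-0.45 ± 0.15). Without replicate 3, 0 of the 12 were called. Markers of neighbouring grey matter varied between libraries of a side. The 10 cortical excitatory markers summed to 436 to 499.5 CPM in LPC_Ipsil and 476 to 592 CPM in LPC_Contra, the 10 striatal ones to 1651 to 2500.4 CPM in LPC_Ipsil and 1954 to 3338 CPM in LPC_Contra and the 8 hippocampal ones to 131 to 165 CPM in LPC_Ipsil and 110.2 to 165 CPM in LPC_Contra, and their part in the neuronal difference was not tested.

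Immediate early genes, which neurons switch on within minutes of activity, had a lower median than the neuron list. Of 12, 0 were higher and 7 lower at an unadjusted p under 0.05, 7 lay below LPC_Contra in all 3 lesion libraries, where the share over all genes was 6.59%, and the median log2 difference was -0.81. The list stood at -0.64, -0.40 and -1.002 in LPC_Ipsil, -0.18, 0.20 and -0.02 in LPC_Contra and -0.84, -0.45 and 0.26 in Sham_Ipsil. Sham thus spanned the levels of LPC_Contra and of LPC_Ipsil replicates 1 and 2, and LPC_Ipsil replicate 3 lay below it. Besides Egr1, Nr4a1, a nuclear receptor, stood at 53.2, 86.6 and 64.2 CPM in LPC_Ipsil and 134, 151 and 115 CPM in LPC_Contra (-0.97 ± 0.30, adjusted p = 0.133). Egr4, a relative of Egr1, stood at 7.91, 8.17 and 6.65 against 13.9, 21.6 and 17.1 CPM (-1.21 ± 0.32), and Npas4, an activity-dependent transcription factor of neurons, at 14.9, 24.4 and 14.3 against 35.9, 37.2 and 33.3 CPM (-0.99 ± 0.36). Without replicate 3, 1 of the 12 was called lower, Egr1. The neuron list above also stood lower in these libraries, and its part in the lower immediate early genes was not tested.

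Cells that line the ventricles gave values that varied widely between libraries of a side. The 8 choroid plexus markers had 0 higher and 0 lower, and Ttr, the plexus transthyretin gene, stood at 63.3, 34.8 and 484 CPM in LPC_Ipsil and 20.2, 164 and 948 CPM in LPC_Contra. The median of -0.95 was 0.99 without LPC_Contra replicate 3 and -2.06 without LPC_Ipsil replicate 3. Of 6 ependymal genes, 0 were higher and 1 lower, Tmem212, at 0.664, 0.283 and 1.45 against 2.24, 2.92 and 2.14 CPM (-1.63 ± 0.55, adjusted p = 0.183), without overlap. Their median was -0.82, and without replicate 3 it was -1.31. In that fit 0.286% of all genes were called lower, and of the 6 ependymal genes 2 were. These were Tmem212 (adjusted p = 0.0263) and Ccdc153 (adjusted p = 0.0109), a coiled-coil gene of ciliated cells that stood at 1.69, 0.898 and 5.68 CPM in LPC_Ipsil and 3.704, 6.19 and 6.29 CPM in LPC_Contra, with replicate 3 inside the contralateral range.

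Stress and energy genes were mostly level. Of 13 integrated and oxidative stress genes, 2 were higher and 1 lower at an unadjusted p under 0.05, with a median log2 difference of 0.02. Hmox1, heme oxygenase 1, stood at 21.7, 13.5 and 4.11 CPM in LPC_Ipsil and 4.96, 6.01 and 4.08 CPM in LPC_Contra (1.38 ± 0.41, adjusted p = 0.119). Of 14 hypoxia and glycolysis genes, 3 were higher and 0 lower, with a median of -0.005. Hk2, hexokinase 2, stood at 55.2, 34.6 and 6.77 against 4.54, 4.96 and 4.41 CPM (2.79 ± 0.53, adjusted p = 0.0629), and Pdk1, which diverts pyruvate from mitochondria, at 59.9, 66.7 and 48.6 against 36.1, 42.1 and 43.2 CPM (0.53 ± 0.13), and neither overlapped. For 13 mitochondrially encoded genes the median was -0.09, with 0 higher and 0 lower, and mitochondrial reads made up 8.78% to 10.6% of counts in the 6 libraries. With single LPC libraries left out the 3 medians ran from -0.03 to 0.10, from -0.09 to 0.10 and from -0.17 to -0.03.

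The side difference after LPC was then set against that after L-NIO in the same model. By edgeR's quasi-likelihood test, 0 genes (0%) passed an adjusted p under 0.05 for the difference between the side differences (DESeq2 called 0), and 171 (1.02%) had an unadjusted p under 0.05. Medians of the microglial lists were higher after LPC, at 3.09 against 2.46 for damage-associated genes and 1.65 against 0.98 for lysosomal genes. The medians of the gene-wise differences of differences were 0.57 and 0.36. Among lists that ran the other way was the interferon list, at 1.20 against 1.67. Others were chemokines at 2.30 against 3.13, MHC class I genes at 1.52 against 1.61 and reactive astrocyte genes at 1.14 against 1.30. Levels of the interferon list relative to the LPC_Contra mean overlapped between the lesions, at 1.57, 0.92 and 0.89 in LPC_Ipsil and 0.29, 1.48 and 1.45 in LNIO_Ipsil. On the contralateral sides they were -0.06, 0.45 and -0.38 in LPC_Contra and -0.76, -0.26 and -1.09 in LNIO_Contra. Of the differentiating oligodendrocyte genes, 3 of 12 had a positive difference of differences at an unadjusted p under 0.05 and 0 a negative one. These were Cemip2 (0.76 ± 0.25), Rras2 (0.58 ± 0.23) and Itpr2 (0.59 ± 0.26), whose side differences after L-NIO were -0.08 ± 0.17, 0.20 ± 0.16 and 0.27 ± 0.18. Csf1 differed by 0.66 ± 0.29 (unadjusted p = 0.0379), and Egr1 by -0.65 ± 0.25 (unadjusted p = 0.0208), and the adjusted p of each of these genes was 1.

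**Figure D4:**
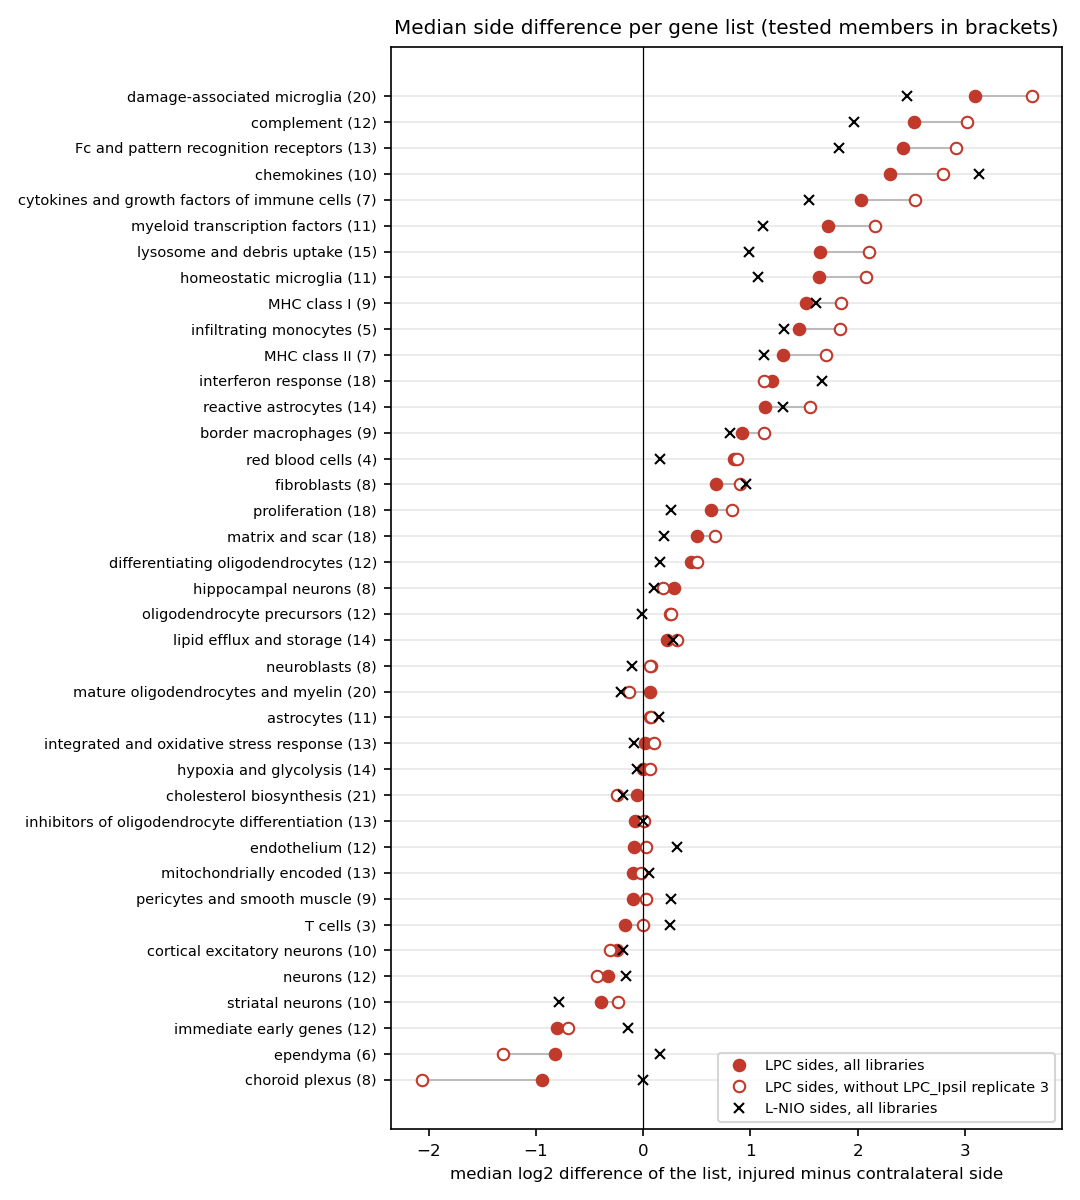
Median log2 difference between the injured and contralateral sides for each gene list with at least 3 tested members, after LPC with all libraries (filled circles), after LPC without LPC_Ipsil replicate 3 (open circles) and after L-NIO (crosses). Leaving out replicate 3 raises the microglial medians, that of damage-associated genes from 3.09 to 3.62, and moves that of differentiating oligodendrocyte genes from 0.45 to 0.50.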

How the data were processed

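Bulk RNA-seq of mouse corpus callosum was used as deposited, in a table of counts and a table of FPKM for 15 libraries. The deposited counts are whole reads per gene symbol. The deposited FPKM values are the authors' counts scaled by gene length and library total. Per the submitters' processing notes, the genome build was GRCm39, and HISAT2 2.2.1 and R 4.4.2 were among the tools. TRIzol extraction, depletion of ribosomal RNA, poly(A) purification and paired-end sequencing are named per the labels' protocols. Annotation, counting tool and strandedness were not given in the sources used here. Overlapping, antisense and near-identical genes are therefore uncertain, and 74 entries repeat a symbol. Replicates of a group differed by more than sampling noise.

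The test was the robust quasi-likelihood one of edgeR 4.0.16 (run in R 4.3.3), on TMM-scaled counts after filterByExpr with a minimum count of 10 and a minimum total of 15. All 15 libraries entered 1 fit of 5 group means, without a block. The threshold was 0.05 on p adjusted by Benjamini-Hochberg, and the standard error is the log2 difference divided by the square root of F. The 43 gene lists hold 505 genes, of which 501 were found and 454 tested, and they share members. List levels are means of log2 CPM with a prior count of 2. Alternatives used DESeq2 1.42.0, limma 3.58.1 on log2(FPKM + 1) and on log2(FPKM + 0.1), other scaling, no filter, replicate blocks, the 6 LPC libraries alone and each library left out. Code was tested on simulated data.

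Genes were named by a rule: 6 in each direction by smallest p where none was called, up to 5 list members with the smallest p, and a set of cell type markers, with predicted genes left out. The members, lists and rule were chosen with earlier results of these data known. Genes outside the rule are marked as chosen after their values were seen. Some genes of the rule and their values are not reported here.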

Additional observations from a re-analysis of the deposited data

How the results depend on the processing

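For the LPC sides, DESeq2 called 661 genes, a fit without both LPC_Ipsil replicate 3 and LPC_Contra replicate 2 called 1283, and leaving out single libraries gave 0 to 950, with 950 only without LPC_Ipsil replicate 3 and 0 in the other 14. Size factors from DESeq2 in edgeR, no low-count filter, the 6 LPC libraries alone and limma on log2 FPKM with either pseudocount each gave 0. The difference between the LPC and L-NIO side differences gave 0 calls in each setting run. For LPC_Contra against Sham_Ipsil, DESeq2 called 25 and leaving out single libraries gave 0 to 2. The cause of these shifts was not tested.

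Sides share replicate numbers, but the labels do not say that a number marks a shared animal. Correlations of the deviations of equal numbers were -0.0357, 0.165 and 0.334, so the numbers were not taken as pairs, and LPC_Ipsil replicates 1 and 2 both correlated best with LPC_Contra replicate 2. With a replicate block for each model and number, 24 genes were called (21 higher, 3 lower), of which 22 were among the 950. The 3 lower were the immediate early genes Egr1 (adjusted p = 0.0477), Nr4a1 (adjusted p = 0.0477) and Egr4 (adjusted p = 0.0487). A block by number alone, and the block in the 6 LPC libraries, gave 0 for the sides, and 0 for LPC_Contra against Sham_Ipsil. The block by model cannot be fitted for LPC_Contra against Sham_Ipsil, and the block by number alone was not run for the difference of differences.

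Of 89 tested genes named, 5 changed sign in 9 fits, all with an adjusted p of at least 0.705 there. With single libraries left out, the log2 difference ran from -0.244 to 0.0287 for Cldn5, from -0.241 to 0.629 for Hmgcs1, from -0.138 to 0.175 for Mbp and from -2.95 to 1.05 for Ttr. Without LPC_Ipsil replicate 3 and LPC_Contra replicate 2 together it was 0.136 for Cd4, 0.144 for Cldn5, -0.168 for Hmgcs1 and -0.172 for Mbp. At 3 libraries a side, an exact permutation test of a single value cannot go below p = 0.1.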
